A study of Rattus norvegicus with 4 samples.

Results

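Mir22 is the rat gene of the microRNA (miRNA) miR-22, and its mature products miR-22-3p and miR-22-5p are the 2 rows of the deposited table that carry this gene symbol. It is 1 of 452 miRNA genes in the table, and its products are 2 of 740 mature names. The gene was chosen from these same counts, because miR-22-3p was the most abundant miRNA of 1 of the 4 libraries. Its percents, ranks and arm ratios are therefore given as a description, with no test. Small RNA was sequenced from RC-cells, which are resting zone chondrocytes, from RC-MVs, the matrix vesicles (MVs) taken from their cultures, and from GC-cells and GC-MVs, the corresponding samples of growth zone chondrocytes. All cells came from costochondral (rib) cartilage of male Sprague Dawley rats, were grown to confluence at passage 4 without further treatment, and were fed with ascorbic acid and with bovine serum that had been spun at high speed to remove its exosomes. The MVs were released from the cell layer by trypsin, which was stopped with a buffer that also held such exosome-depleted bovine serum. They were then collected by centrifugation in steps, and vesicles of the culture medium are not among these libraries. Each group was 1 library, and RC-cells gave 6517329 miRNA reads, GC-cells 7414467, RC-MVs 1108821 and GC-MVs 982543. How many animals or cultures went into a library, and the age of the rats, are not given in the sources used here. The same study also measured miR-22-3p by PCR array in replicate samples, which were not used here. The paper's list of miRNAs that differed between RC-MVs and RC-cells on that array does not name miR-22-3p. As no group had a second sequencing library, no difference could be held against replicate spread, no p-value was computed, and every interval below is a 95% interval for counting error only, in which PCR copies of 1 molecule count as separate reads.

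miRNAs are cut from a hairpin-shaped precursor, and either arm of the hairpin, named 5p or 3p, can be loaded into an Argonaute protein. The loaded arm finds its mRNA targets mainly through the seed, bases 2 to 8 from its 5′ end, and lowers their translation or stability. For miR-22 the 3p arm is the usual guide strand. It is known for repressing HDAC4, a histone deacetylase that restrains chondrocyte hypertrophy, and it has been studied in heart muscle and in osteoarthritic cartilage. MVs are membrane particles in the cartilage matrix where mineral is first laid down. By the paper's account, this holds for GC-MVs, whereas RC-MVs usually do not calcify.

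The sequences of Mir22 are shown because the seed defines its targets and because both arms are compared below. In RefSeq, the hairpin lies on the plus strand of rat chromosome 10 of the GRCr8 assembly, at chr10:60805331-60805425. No other gene of the RefSeq table overlaps it, and it stands between the protein-coding genes Wdr81 and Tlcd2. The authors counted on the older build Rnor_6.0, whose coordinates were not used here. The hairpin has 95 bases, printed 5′ to 3′ with the 5p arm and then the 3p arm in capitals.
Mir22 hairpin: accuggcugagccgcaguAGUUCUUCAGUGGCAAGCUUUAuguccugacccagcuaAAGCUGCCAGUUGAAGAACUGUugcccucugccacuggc
The mature arms follow with the seed in capitals, miR-22-3p from chr10:60805387-60805408 and miR-22-5p from chr10:60805349-60805370 of the same strand.
miR-22-3p: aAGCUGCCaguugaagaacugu
miR-22-5p: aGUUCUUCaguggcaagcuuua
In the fold of lowest energy, 19 of the 22 bases of the 5p arm were paired with the 3p arm, and all 7 bases of the 3p seed were paired. Among 693 mature rat miRNAs with a sequence, 0 others shared the seed of miR-22-3p and 0 shared that of miR-22-5p, so neither arm has a seed family among these sequences. An mRNA site that pairs with the whole seed of miR-22-3p reads GGCAGCU.

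miR-22-3p was abundant in all 4 libraries. RC-cells gave 145113 reads of it and GC-cells 164597, against 224720 from RC-MVs and 166652 from GC-MVs. As a percent of all miRNA reads of its library, this was 2.23% in RC-cells (95% Wilson interval from 2.22% to 2.24%) and 2.22% in GC-cells (2.21% to 2.23%). It was 20.3% in RC-MVs (20.2% to 20.3%) and 17.0% in GC-MVs (16.9% to 17.0%). Both MV libraries were high and both cell libraries low, and the values of MVs and cells did not come near each other. In order of level, RC-MVs stood above GC-MVs, and both stood far above the cells, whose intervals overlapped. The rank of miR-22-3p was 1 of 431 miRNAs with reads in RC-MVs and 3 of 431 in GC-MVs, against 7 of 496 in RC-cells and 5 of 501 in GC-cells.

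**Figure D1:**
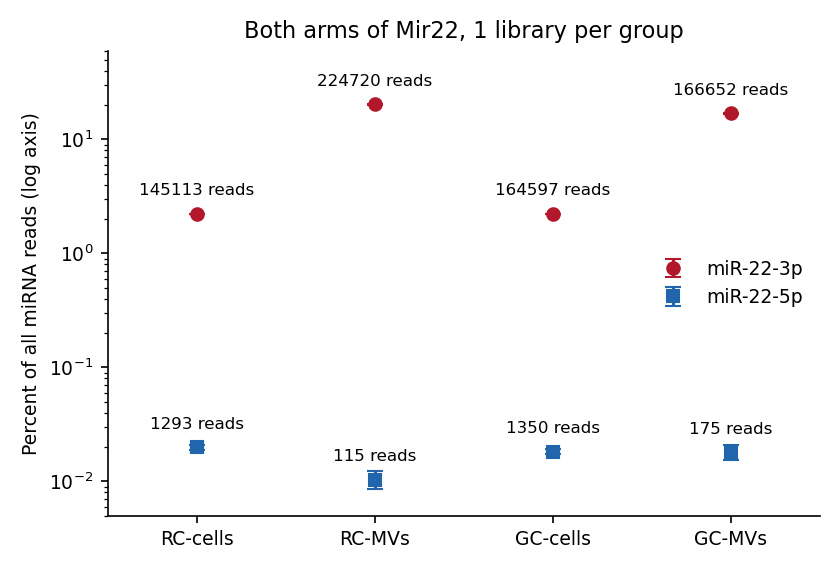
Percent of all miRNA reads (log axis) of miR-22-3p (circles) and miR-22-5p (squares) in the 4 libraries, with the read count above each point and 95% Wilson intervals as bars, which are shorter than the symbols for miR-22-3p. The circles of RC-MVs and GC-MVs at 20.3% and 17.0% lie above those of the cells at 2.23% and 2.22%, while the squares stay between 0.0104% and 0.0198%.

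The neighbours in rank show how far the lead reached. In RC-MVs the next miRNA was miR-21-5p, a widely expressed miRNA, with 190801 reads or 17.2%, so that miR-22-3p led by 1.18 times. In GC-MVs miR-22-3p stood just below miR-21-5p, which had 17.9%, and the most abundant miRNA there was miR-143-3p, known from smooth muscle and other mesenchymal cells, with 32.4%. Below miR-22-3p in GC-MVs came miR-127-3p with 2.29%, a step of 7.39 times. In the cells the leading miRNAs were miR-21-5p with 42.7% and 41.9%, miR-143-3p with 11.2% and 20.7%, and let-7i-5p with 5.00% and 4.92% in RC-cells and GC-cells, and the steps around miR-22-3p were small. In RC-cells it lay between let-7f-5p with 2.35% and miR-199a-5p with 2.07%, and in GC-cells between miR-148a-3p with 2.53% and let-7f-5p with 2.11%. let-7f-5p has 2 loci, and its near-identical relatives make its count uncertain.

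**Figure D2:**
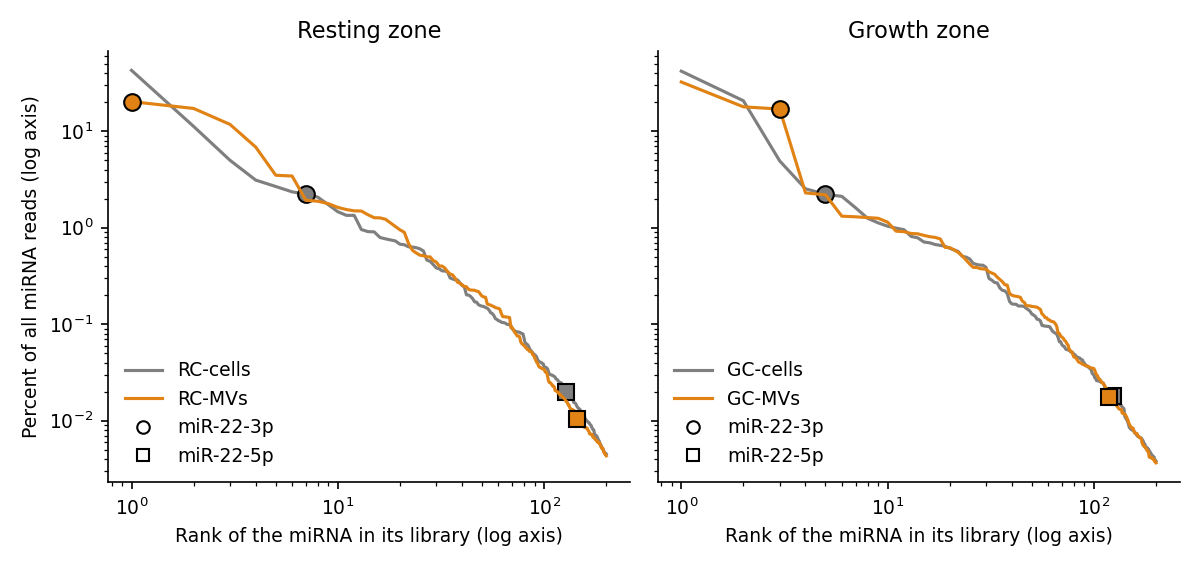
Percent of all miRNA reads against the rank of the miRNA in its library (both log axes) for the 200 most abundant miRNAs, in the resting zone (left) and the growth zone (right), with miR-22-3p as circles and miR-22-5p as squares. miR-22-3p moved from rank 7 to rank 1 between RC-cells and RC-MVs and from rank 5 to rank 3 between GC-cells and GC-MVs, while miR-22-5p stayed between ranks 119 and 144.

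miR-22-5p, the other arm, was a minor miRNA throughout. RC-cells gave 1293 reads of it and GC-cells 1350, against 115 from RC-MVs and 175 from GC-MVs. Its percent was 0.0198% in RC-cells (0.0188% to 0.0210%), 0.0182% in GC-cells (0.0173% to 0.0192%) and 0.0178% in GC-MVs (0.0154% to 0.0207%), and these intervals overlapped. RC-MVs were the low library, with 0.0104% (0.00864% to 0.0124%), an interval below those of the other libraries. A count of 3 reads amounts to 0.000271% in RC-MVs and 0.000305% in GC-MVs, so miR-22-5p was well above the limit of depth in each library. Its rank was 127 in RC-cells and 124 in GC-cells, against 144 in RC-MVs and 119 in GC-MVs. The miRNAs just above it were miR-210-3p, miR-27a-5p, miR-666-5p and miR-181d-5p, and those just below miR-129-5p, miR-221-5p, miR-708-3p and miR-329-5p, in that order of libraries.

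The first comparison asks which miRNAs are richer in MVs than in the cells that made them. RC-MVs held 9.10 times the miR-22-3p share of RC-cells (exact Clopper-Pearson interval from 9.04 to 9.16), and GC-MVs 7.64 times the share of GC-cells (7.59 to 7.69). A ratio of at least 2-fold in favour of MVs was common, as it was seen for 33.6% of 414 miRNAs with reads in both RC libraries and for 32.1% of 417 in both GC libraries. The rank of miR-22-3p was 14 among 293 miRNAs that had 10 or more reads in both RC libraries, and 13 of 275 in the GC libraries. The other miRNAs of high level in the cells mostly had ratios below 1. Among the 20 most abundant miRNAs of RC-cells, 4 had a ratio of 2 or more and 9 a ratio of 0.5 or less in RC-MVs, the median ratio was 0.521, and miR-22-3p had the largest ratio, followed by miR-127-3p with 3.96. Among the 20 most abundant of GC-cells, 3 reached 2-fold higher and 10 reached 2-fold lower, and miR-22-3p again had the largest ratio, followed by miR-152-3p with 2.12. Over the 262 miRNAs that had 10 or more reads in each of the 4 libraries, 72 were at least 2-fold higher in the MVs of both zones. Of these, 5 had a mean of at least 1% over the libraries, namely miR-22-3p, miR-127-3p, miR-134-5p, miR-152-3p and miR-320-3p. This mean includes the MV libraries, so a miRNA could reach 1% through its high values there. In RC-cells, miR-134-5p held 0.288% and miR-152-3p 0.748%, against 1.73% for miR-127-3p and 2.23% for miR-22-3p.

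**Figure D3:**
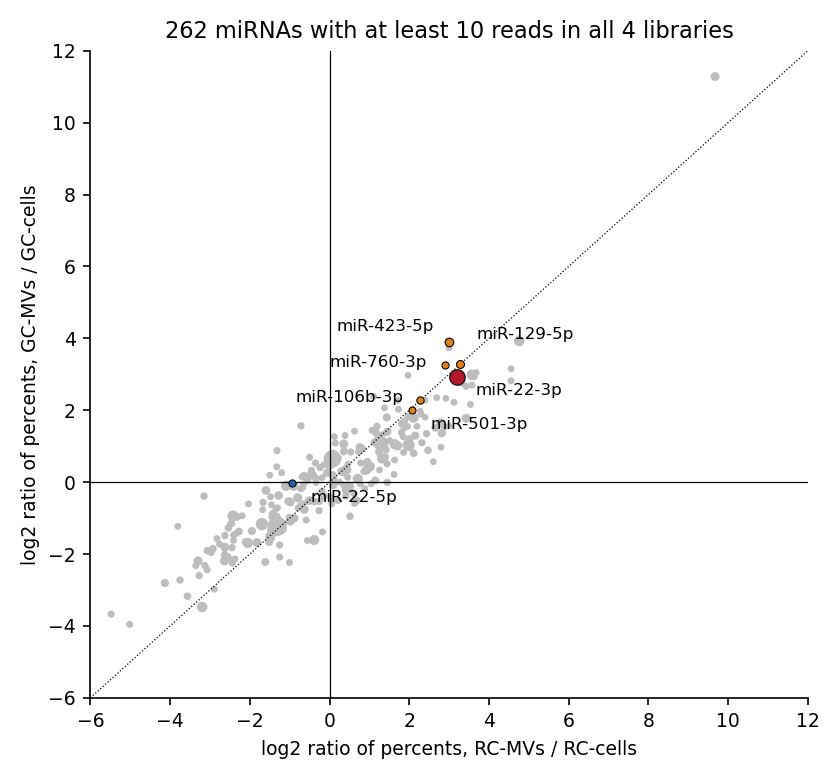
log2 ratio of the percent in MVs to that in cells for the resting zone (x axis) and the growth zone (y axis), over 262 miRNAs, with larger circles for a larger mean percent over the 4 libraries. miR-22-3p (red) is at 3.19 and 2.93, miR-22-5p (blue) is at -0.94 and -0.03, and the 5 miRNAs with the pattern most like miR-22-3p are orange, the dotted line marks equal ratios in both zones, and the far point at the upper right is miR-122-5p.

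The size of this difference could be seen in the reads themselves. The RC-cell library was 5.88 times as deep in miRNA reads as the RC-MV library, and the GC-cell library 7.55 times as deep as the GC-MV library, yet miR-22-3p had more reads in the MV library of each zone. Of the 262 miRNAs with at least 100 reads in RC-cells, 11 had more reads in RC-MVs than in RC-cells, and in the growth zone this held for 8 of 270. miR-22-3p had the most reads of them in both zones. In percentage points, miR-22-3p was 18.0 points higher in RC-MVs, or 39.2% of the 46.0 points gained by all miRNAs that were higher in RC-MVs. The next gain was that of miR-127-3p with 5.11 points. In GC-MVs miR-22-3p was 14.7 points higher, or 38.8% of the 38.0 points gained, and miR-143-3p followed with 11.7 points. The largest opposite change was that of miR-21-5p, with -25.5 points in RC-MVs and -24.0 points in GC-MVs. As percents add up to the whole library, such changes are not independent of each other.

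Counting miR-22-3p against single miRNAs of the same library does not depend on any scaling. For each read of miR-21-5p there were 0.0521 reads of miR-22-3p in RC-cells and 0.0530 in GC-cells, against 1.18 in RC-MVs and 0.948 in GC-MVs. For each read of miR-143-3p there were 0.199 reads of miR-22-3p in RC-cells and 0.107 in GC-cells, against 1.72 in RC-MVs and 0.524 in GC-MVs. Both measures were higher in MVs than in cells in both zones. The measure against miR-21-5p was nearly equal in both cell libraries, whereas the measure against miR-143-3p was lower in the growth zone in cells and in MVs alike. Against miR-127-3p, the order of the zones was the opposite, with 1.29 in RC-cells and 1.98 in GC-cells, against 2.96 in RC-MVs and 7.39 in GC-MVs. Against miR-103-3p, miR-107-3p, miR-191a-5p, miR-423-3p and miR-425-5p as a sum, which are often used as references in PCR, miR-22-3p had 3.96 reads per reference read in RC-cells and 4.04 in GC-cells, against 27.6 in RC-MVs and 23.9 in GC-MVs. Of these 5 references, 2 were higher and 1 was lower by 2-fold or more in the MVs of either zone, which is near the shares of 33.6% higher and 30.4% lower over all miRNAs in the resting zone and of 32.1% and 25.2% in the growth zone.

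The second comparison asks whether maturation of the chondrocytes changes the miRNAs of cells and MVs. In the cells, miR-22-3p had nearly the same share in both zones, with a ratio of RC-cells to GC-cells of 1.00 (0.996 to 1.01). On this scale 0 of 379 miRNAs that had 10 or more reads in both cell libraries had a log2 ratio nearer to 0. This rank depended on the scaling, as the median log2 ratio of these miRNAs was 0.29, and with TMM normalization the ratio was 0.795 and 165 miRNAs lay nearer to 0. Between the MVs, the miR-22-3p share of RC-MVs was 1.19 times that of GC-MVs (1.19 to 1.20), and its direction depended on the scaling as well. It was 1.04 with TMM normalization, 0.981 with DESeq2 size factors and 0.772 when the totals excluded miR-143-3p, miR-21-5p and miR-22-3p. Under none of these settings did miR-22-3p differ by 2-fold between the zones, in cells or in MVs. As background, RC-MVs exceeded GC-MVs by 2-fold or more for 24.7% of 397 miRNAs and fell short by as much for 14.6%, and between the cells these shares were 13.7% and 5.70% of 474. The MV to cell ratio of miR-22-3p was 1.19 times as large in the resting zone as in the growth zone, a log2 difference of 0.25, and 56 of the 262 miRNAs had a smaller difference between the zones in size. The median size over these miRNAs was 0.59. The direction of this difference depended on the scaling too, as the ratios were 7.87 in the resting and 8.20 in the growth zone without the 3 abundant miRNAs in the totals.

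miR-22-5p did not follow its partner. Its share in RC-MVs was 0.523 times that in RC-cells (0.428 to 0.633), a 1.91-fold lower value that stayed short of 2-fold, with 30.4% of miRNAs at least 2-fold lower in that comparison. With the other scalings it passed 2-fold, at 0.491 with TMM normalization, 0.428 with size factors, 0.452 without the 3 abundant miRNAs in the totals and 0.400 against the reference miRNAs. In the growth zone the ratio was 0.978 (0.831 to 1.15), an interval that included no change, and over the scalings it ranged from 0.758 to 1.05, with intervals wholly below 1 for TMM normalization (0.711 to 0.981), size factors (0.699 to 0.964) and the reference miRNAs (0.644 to 0.888). In that comparison 25.2% of miRNAs were at least 2-fold lower. The intervals of the zones did not overlap, and the ratio of the resting zone was 0.534 times that of the growth zone. In size, this difference between the zones exceeded that of 183 of 262 miRNAs. Between the MVs, miR-22-5p was 0.582 times as high in RC-MVs as in GC-MVs (0.456 to 0.741). This ratio passed 2-fold with size factors, at 0.478, and without the 3 abundant miRNAs in the totals, at 0.376. It stayed short of 2-fold with TMM normalization, at 0.506, and against the reference miRNAs, at 0.562. Between the cells the ratio was 1.09 (1.01 to 1.18) but 0.864 with TMM normalization. The low value of RC-MVs rests on 115 reads of 1 library.

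**Figure D4:**
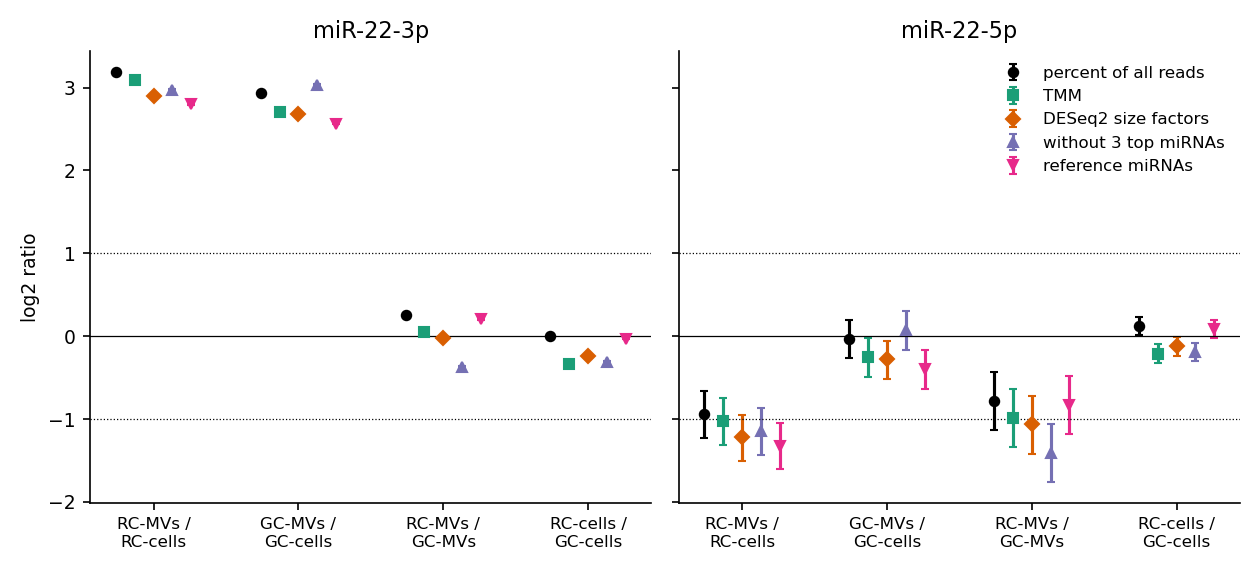
log2 ratio of miR-22-3p (left) and miR-22-5p (right) in 4 comparisons under 5 scalings, with 95% counting intervals as bars and dotted lines at 2-fold. The ratios of MVs to cells of miR-22-3p lie between 2.57 and 3.19 under every scaling shown, those between the zones lie around 0, and miR-22-5p lies below 0 between RC-MVs and RC-cells under each of them.

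Because both arms come from the same hairpin and the same library, the reads of the 3p arm per read of the 5p arm do not depend on scaling. This arm ratio was 112 in RC-cells (exact Clopper-Pearson interval from 106 to 119) and 122 in GC-cells (116 to 129). It was 1954 in RC-MVs (1628 to 2367) and 952 in GC-MVs (821 to 1111). Both MV libraries were above both cell libraries, and the intervals of RC-MVs and GC-MVs did not overlap. In other terms, miR-22-5p made up 0.883% of the reads of both arms in RC-cells and 0.0511% in RC-MVs, and 0.814% in GC-cells and 0.105% in GC-MVs. At the arm ratio of RC-cells, the 3p reads of RC-MVs would have gone with 2002 reads of miR-22-5p, where 115 were counted. In the growth zone 1367 would have gone with them, where 175 were counted.

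The change of the arm ratio was 17.4-fold for RC-MVs and 7.81-fold for GC-MVs. It was set beside other precursors whose arms each had 1 locus and at least 10 reads in both libraries, which left 76 for the resting and 69 for the growth zone. The arm with more reads in the cells was taken as the major arm. For 27 of the 76 and 27 of the 69 precursors the major arm gained on the minor arm in MVs, and the median log2 change was -0.80 and -0.35, respectively. Its log2 change of 4.12 in the resting zone was second to that of Mir140, the precursor of the cartilage miRNA miR-140, with 4.38, and was followed by Mir106b with 3.75. In the growth zone Mir22 was first with 2.97, followed by Mir106b with 2.68 and Mir140 with 2.56. These ranks depended on the treatment of low counts. The minimum of 10 reads removed 49 of 125 and 54 of 123 precursors that met it in the cells but not in the shallower MV libraries. With the minimum set in the cells only and 0.5 reads added to each arm, a setting chosen after the data were seen, Mir22 had rank 5 of 125 in the resting zone, after Mir296, Mir298, Mir140 and Mir299, and rank 9 of 123 in the growth zone. The major arm then gained for 54 of the 125 and 62 of the 123, with a median change of -0.33 and 0.0011. Apart from Mir140, the precursors above Mir22 there were ones that the minimum in both libraries had removed. Their low reads of the minor arm in the MVs follow from that filter. In the cells Mir22 had a strong but not unusual bias between its arms, with rank 26 of 125 precursors in RC-cells and 23 of 123 in GC-cells under that setting. Over the same precursors its bias had rank 6 in RC-MVs and 7 in GC-MVs. Between RC-cells and GC-cells the arm ratio of Mir22 changed by a log2 value of -0.12, against a median 3p to 5p change of -0.04 over 117 precursors.

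**Figure D5:**
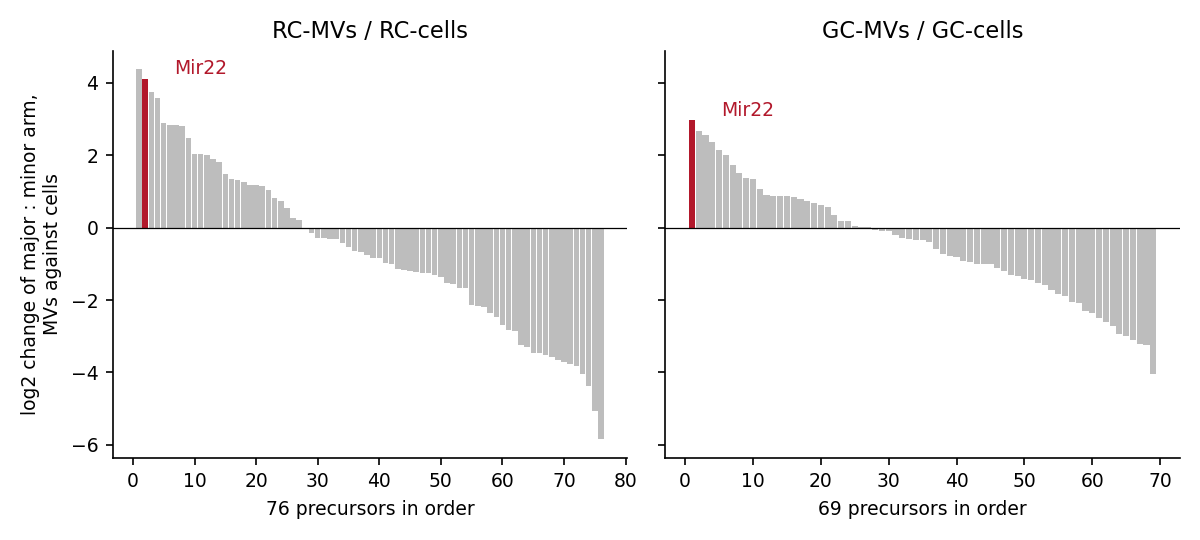
log2 change of the reads of the major arm per read of the minor arm between cells and MVs, for 76 precursors of the resting zone (left) and 69 of the growth zone (right) in falling order, with 1 bar per precursor and Mir22 in red. Mir22 is second in the resting zone at 4.12 and first in the growth zone at 2.97 among precursors with 10 or more reads of both arms in both libraries, and most bars are below 0.

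The miRNAs whose pattern was most like that of miR-22-3p were found among the 130 others with at least 100 reads in every library, by the distance between log2 percents over the 4 libraries after the mean of each miRNA was subtracted. The nearest was miR-129-5p, at a distance of 0.30 against a median of 2.98, with 1283 reads from RC-cells and 1482 from GC-cells, against 2122 in RC-MVs and 1914 in GC-MVs. The MV to cell ratio of its share was 9.72 in the resting and 9.75 in the growth zone. It was followed by miR-760-3p at 0.46, miR-106b-3p at 0.84, miR-423-5p at 0.88 and miR-501-3p at 1.03. All 5 were higher in the MVs of both zones, from 4.19-fold to 9.72-fold among RC libraries and from 3.99-fold to 15.0-fold among GC libraries. They differed from miR-22-3p in level, as its share in RC-MVs was 106 times that of miR-129-5p and 62.5 times that of miR-423-5p, the most abundant of them. The likeness is over 4 libraries of unlike depth, within each of which all miRNAs share the scaling, and describes these libraries only. The sequences of the nearest miRNAs are given, with the seed in capitals, to show that none of these seeds is that of miR-22-3p.
miR-129-5p: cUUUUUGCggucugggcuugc
miR-760-3p: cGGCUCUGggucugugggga
miR-106b-3p: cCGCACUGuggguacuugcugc
miR-423-5p: uGAGGGGCagagagcgagacuuuu
miR-501-3p: aAUGCACCcgggcaaggauuugg
For miR-22-5p the nearest were let-7d-3p at 0.25, miR-199a-3p at 0.42 and miR-146b-5p at 0.43, against a median distance of 1.52. Each of them had less in RC-MVs, with ratios to RC-cells of 0.624, 0.470 and 0.508, and the values in the growth zone were 1.11, 0.931 and 0.675.

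Of 5 other miRNAs known to repress HDAC4, 4 had reads in both RC libraries, 1 of them 2-fold or more higher and 2 lower in RC-MVs, with a median log2 ratio of -1.46 against 0.08 over all 414 miRNAs, of which 33.6% were higher and 30.4% lower by as much. In the growth zone 3 of 5 were 2-fold or more higher and 2 lower, with a median of 1.09 against 0.13 and shares of 32.1% and 25.2% over all miRNAs. The 2 that were lower in both zones were miR-140-5p, a regulator of cartilage growth, with ratios of 0.119 and 0.267, and miR-365-3p, with 4 and 2 reads in the MVs of the zones. miR-206-3p, a muscle miRNA, was higher in both zones but gave only 12 and 29 reads there. Summed, these 5 miRNAs held 0.0903% in RC-cells and 0.106% in GC-cells, against 0.0139% in RC-MVs and 0.0346% in GC-MVs, far below miR-22-3p in each library.

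Cartilage miRNAs and markers of other tissues were followed beside miR-22-3p. As all 4 libraries come from chondrocyte cultures, the cartilage miRNAs cannot tell their labels apart. miR-140-3p was found in every library, with 0.383% in RC-cells and 0.506% in GC-cells, against 0.951% in RC-MVs and 0.794% in GC-MVs, and both arms of miR-455 were found too. The other arm, miR-140-5p, was at 0.119 and 0.267 times the cells in RC-MVs and GC-MVs, and miR-455-5p at 0.377 and 0.389 times. Of the 6 cartilage names 4 had reads in both libraries of a zone, with 1 higher and 2 lower by 2-fold or more in RC-MVs and 0 higher and 2 lower in GC-MVs, where 30.4% and 25.2% of all miRNAs were lower, while miR-675-5p was at 0 reads in all 4 libraries and miR-675-3p had 1 read in all. Of 10 names that mark blood cells and endothelium, 9 were in the table. Of the 9 listed, 7 were 2-fold or more higher in RC-MVs and 1 was lower, and in the growth zone 7 of the 8 with reads in both libraries were higher, where the share over all miRNAs was 33.6% and 32.1% in the zones. Their summed share was 0.0278% in RC-cells and 0.0236% in GC-cells, against 0.104% in RC-MVs and 0.254% in GC-MVs. Most of the sum in the cells was the endothelial marker miR-126a-3p, with 0.0248% in RC-cells and 0.0211% in GC-cells. It was at 0.608 and 2.97 times the cells in RC-MVs and GC-MVs, and its other arm miR-126a-5p at 0.402 and 1.15 times. The red cell marker miR-451-5p had 5 and 8 reads in the cells and 681 and 1401 in the MVs of the resting and the growth zone. For 3 liver and serum miRNAs the summed share was 0.0284%, 0.0393%, 0.418% and 1.18%, in the same order of libraries, and nearly all of the difference was miR-122-5p, while miR-192-5p was at 0.682 and 1.03 times the cells and miR-194-5p at 0.219 and 0.523 times in the MVs of the zones. Both sums moved with miR-22-3p between cells and MVs, whereas between the MVs they were lower in RC-MVs, at 0.411 and 0.354 times GC-MVs, where the share of miR-22-3p was 1.19 times as high, or 0.772 times without the 3 abundant miRNAs in the totals. The 5 muscle miRNAs held at most 0.00994% of any library. In the cells most of this was miR-499-5p, which was lower in the MVs of both zones. The other 4 were 2-fold or more higher in GC-MVs than in GC-cells, on few reads, with 28 against 3 for miR-133a-3p and 7 against 1 for miR-133b-3p. In the resting zone 2 of the 5 had reads in both libraries, 1 higher and 1 lower, and miR-133a-3p was at 0 reads in RC-cells, against 6 from RC-MVs. The part of these other tissues in the values of miR-22-3p was not tested. Depth also differs between cells and MVs, and it was varied by thinning only. All libraries thinned to the smallest total gave ratios of miR-22-3p within its counting intervals.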

How the data were processed

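Small RNA libraries were sequenced on an Illumina HiSeq. The authors used Bowtie2 for alignment to Rnor_6.0, tabulated reads with miARma-Seq and deposited raw read counts per annotated miRNA locus. Tool versions, trimming and the handling of multi-mapping reads are not given in the sources used here. The libraries held between 982543 and 7414467 miRNA reads.

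Counts of loci with the same mature name were added (774 loci, 740 names). Both Mir22 arms have 1 locus. Counts were divided by all miRNA reads of the library, as in the study, and ratios of percents were taken with at least 1 read in both libraries. Wilson and Clopper-Pearson intervals are at the 95% level. Alternatives were edgeR's TMM normalization, DESeq2 size factors, totals without 3 abundant miRNAs, 5 reference miRNAs, pseudocounts of 0.5 and 5, thinning (100 draws), loci kept separate, a minimum of 10 reads, 4-fold and the whole interval beyond 2-fold. The gene and the miRNA lists were chosen with earlier results of these data known. The miRNAs named are both arms, the leading 3 of each library, the rank neighbours of both arms, those most alike in pattern, genomic neighbours and list members, and other leaders of a ranking were named after their values were seen. Intervals and calls were tested on simulated counts that held counting error only, which cannot show how they behave under spread between replicates. RefSeq sequences (GRCr8) matched 660 of 740 names. Folding used RNAfold 2.7.2. Python 3.11.15, scipy 1.17.1, R 4.3.3, edgeR 4.0.16 and DESeq2 1.42.0 were used. A further miRNA list is not reported here.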

Additional observations from a re-analysis of the deposited data

How the results depend on the processing

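A fit of MVs against cells with the zone as a block, which leaves 1 residual degree of freedom, could have been made and was not run, as the gene was chosen from these libraries. By replicate number, no paired analysis was possible because the groups compared share a single number, and with 1 library per group none could be left out. The ratios of miR-22-3p to cells kept their direction and stayed above 2-fold under each scaling. In the order of TMM normalization, DESeq2 size factors, totals that exclude miR-143-3p, miR-21-5p and miR-22-3p, and reference miRNAs, they were 8.55, 7.46, 7.87 and 6.97 for RC-MVs against RC-cells, and 6.54, 6.43, 8.20 and 5.92 for the growth zone. RC-MVs against GC-MVs gave 1.04, 0.981, 0.772 and 1.15, and RC-cells against GC-cells gave 0.795, 0.845, 0.805 and 0.979, so the direction between the zones was not settled. In the same 4 scalings, the log2 ratio of every miRNA moved by -0.09, -0.29, -0.21 and -0.38 for RC-MVs against RC-cells, and by -0.20, -0.29, -0.63 and -0.05 for RC-MVs against GC-MVs. For miR-22-5p, values outside the counting interval were 0.400 (references) in the resting zone, 0.823 (size factors) and 0.758 (references) in the growth zone, 0.376 (without the 3 abundant miRNAs) between the MVs, and 0.864, 0.918 and 0.874 between the cells under the first 3 scalings. Pseudocounts and thinning kept every ratio and arm ratio inside its interval. The rank of Mir22 by its change of the arm ratio went from 2 to 5 and from 1 to 9 when 2 choices were changed together. The minimum of reads was then set in the cells only, and 0.5 reads were added to each arm. Leaving miR-21-5p out of the totals raised miR-22-3p to 24.5% in RC-MVs, 20.7% in GC-MVs, 3.89% in RC-cells and 3.82% in GC-cells. With each locus as deposited, miR-22-3p had rank 6 in RC-cells, its ranks in the other libraries were as given, and miR-22-5p had rank 137 in RC-cells, 134 in GC-cells, 152 in RC-MVs and 128 in GC-MVs.

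The number of miRNAs at least 2-fold different was 265, 239, 156 and 92 for RC-MVs against RC-cells, GC-MVs against GC-cells, RC-MVs against GC-MVs and RC-cells against GC-cells. At 4-fold it was 143, 101, 32 and 20. With at least 10 reads in both it was 184, 144, 97 and 50, and with the whole interval beyond 2-fold 179, 134, 61 and 24, where fewer miRNAs were tested or the call was stricter. Depth limits the precision of miR-22-5p, with 115 and 175 reads in the MVs.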

Other observations

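The miRNA genes next to Mir22 on chromosome 10, in the gene order of GRCr8, had a wide range of values. Mir132 and Mir212, a pair known from neurons and from inflammation, lie on one side, and the MV to cell ratio of miR-132-3p was 1.45 in the resting and 1.79 in the growth zone, while that of miR-212-3p was 0.914 and 0.764. Their other arms had ratios of 1.61 and 0.701 for miR-132-5p and of 0.367 and 0.511 for miR-212-5p. miR-6326, whose gene is next to Mir22 on that side, had 3 reads in RC-cells, 3 in GC-cells and 0 in either MV library. On the other side, Mir423 gave miR-423-5p, which was 7.94-fold and 15.0-fold higher in MVs, and miR-423-3p, which was 2.73-fold and 2.64-fold higher. Mir144 and Mir451a, known from red blood cells, follow it. miR-144-3p had 2 reads in RC-cells, 3 in GC-cells, 144 in RC-MVs and 153 in GC-MVs, and miR-451-5p had 5, 8, 681 and 1401 reads in that order, so both were higher in the MVs.

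The base content of miR-22-3p was lower than that of most miRNAs that were 2-fold or more higher in MVs. Across the 265 miRNAs with a sequence and at least 10 reads in both RC libraries, the GC content and the ratio of RC-MVs to RC-cells had a Spearman rho of 0.56, and in the growth zone the value was 0.51 across 251 miRNAs, given as a description of points that share libraries and depth. The 92 miRNAs with a ratio of 2 or more had a median GC content of 54.5% and the 74 with a ratio of 0.5 or less one of 40.9%. miR-22-3p had 45.5%, and 10 of the 92 had a lower GC content. miR-22-5p had 40.9%. The motifs GGAG and GGCU, searched in the mature strand only because they are known from studies of sorting into vesicles, are held by 8.08% and 10.8% of 693 mature miRNAs. Neither is in miR-22-3p or miR-22-5p, and GGCU is in miR-129-5p and miR-760-3p.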
